A study of Mus musculus with 6 samples.

Results

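Heat shock proteins are chaperones that hold, fold and refold other proteins, and the genes of the inducible ones are switched on together when unfolded proteins build up in a cell. Heat shock factor 1, encoded by Hsf1, binds repeated GAA units called heat shock elements near the start sites of these genes and raises their transcription. In muscle cells the same chaperones also take part in folding myosin and in the upkeep of the contractile apparatus. Described here are 10 such genes, taken from the table by their symbols: Hspa1a and Hspa1b (the inducible Hsp70 pair), Hspa8 (the constitutive Hsp70), Hsph1 (Hsp110, a nucleotide exchange factor of Hsp70), Dnajb1 (an Hsp40 co-chaperone that feeds substrates to Hsp70), Bag3 (an Hsp70 co-chaperone in selective autophagy), Hsp90aa1 (inducible cytosolic Hsp90), Hspb1 (a small heat shock protein), and Hspd1 and Hspe1 (the mitochondrial chaperonin Hsp60 and its lid Hsp10). All 10 have 1 row each in a table of 20950 rows, and 9 of them were among the 10726 genes that averaged 1 FPKM or more and were tested.

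The cells were C2C12, an established line of mouse myoblasts whose cells fuse into myotubes at low serum. Growing cells in 10% FBS (fetal bovine serum) gave 1 library, and cells switched to differentiation medium gave the other 5. These were 1 library each of 2% HS (horse serum), 2% HS + exosome and 0.2% FBS, and 2 libraries of 0.2% FBS + exosome (replicates 1 and 2). The exosomes, small membrane vesicles, were isolated from FBS and added in the amount that 10% FBS contains. The labels do not say whether replicates 1 and 2 came from separate cultures, so tests may measure technical spread only.

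Markers of the myogenic line were present in every library, with summed levels of 3225 to 8871 FPKM over 7 genes. Summed markers of adipocytes, endothelium, erythroid cells and epithelium stayed below 1 FPKM in each library, and those of leukocytes between 2.07 and 3.41 FPKM. Summed fibroblast markers ran from 105 FPKM in 10% FBS to 280 in replicate 1, with Thy1 at 0 throughout, and their part in the results below was not tested. The table holds FPKM (fragments scaled to transcript length and to the mapped reads of the library) and no counts, and the spacing of low values gave estimated depths of 33700000 to 39400000 reads.

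The printed stretches show where the letters of a heat shock element lie near the start sites. Of the 10 genes, 8 have an entry in the RefSeq promoter table (GRCm38.p6, 250 bases before to 50 bases after each start site), with 11 start sites between them, and Hspa8 and Hsp90aa1 have none. A 2-unit element was searched as GAANNTTC or TTCNNGAA and a 3-unit element as GAANNTTCNNGAA or TTCNNGAANNTTC, on both strands, and every 3-unit match contains overlapping 2-unit matches. The 3-unit letters were in 3 of the 8 genes, Hspd1, Hspe1 and Hsph1, against 0.662% of all 27025 genes in the table. The 2-unit letters were in 7 of the 8, all but Dnajb1, against 17% of all genes, and a gene with several start sites counts once if any of them has a match. The 3-unit matches of Hspd1 and Hspe1 are the same bases, and the windows of Hspa1a and Hspa1b are nearly identical. These counts of genes are therefore not counts of separate sites. Among all 32851 windows of this length, 0.603% hold the 3-unit and 15.1% the 2-unit letters. A match describes letters only, and its absence says only that these letters are not in this window.

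Hspa1b and Hspa1a lie 9951 bases apart on the minus strand of chromosome 17 (Hspa1b at chr17:34956436-34959238 and Hspa1a at chr17:34969190-34972156, GRCm38), each as a single exon. In the 250 bases before their start sites 247 are identical, and both hold the 2-unit letters at position -104. The stretches below run from position -128 to -73, on the minus strand at chr17:34959311-34959366 and chr17:34972229-34972284, outside annotated exons, with the 2-unit letters in capitals.
Hspa1b: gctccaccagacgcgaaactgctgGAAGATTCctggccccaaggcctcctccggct
Hspa1a: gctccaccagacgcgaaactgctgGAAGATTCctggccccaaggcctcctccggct

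Hspd1 and Hspe1 are transcribed in opposite directions from a shared region of chromosome 1, and their annotated spans (chr1:55077835-55088243 on the minus strand and chr1:55088132-55091307 on the plus strand) overlap by 112 bases, where reads cannot be told apart without strand. The bases below lie before the start site of Hspe1 and before the second start site of Hspd1, but after the first of Hspd1. The window of that first site has 0 matches, and the capitals below mark overlapping 3-unit matches. The stretch is chr1:55088053-55088082, read on the plus strand for Hspe1 (positions -95 to -66) and on the minus strand for the second start site of Hspd1 (positions -150 to -121), and it lies in a 5′ UTR exon of another Hspd1 transcript.
Hspe1: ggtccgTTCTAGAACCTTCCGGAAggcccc
Hspd1: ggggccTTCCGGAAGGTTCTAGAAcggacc

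Hsph1, at chr5:149614287-149636376 on the minus strand, carries its 3-unit letters after its start sites, at position 37 from the first and 16 from the second, and a separate 2-unit match before them, at -33 and -54. Hspb1, at chr5:135887919-135889563 on the plus strand, carries separate 2-unit matches at positions -117 and -97. Bag3, at chr7:128523616-128546981 on the plus strand, carries its only 2-unit match at position 43. The stretches below, with the matched letters in capitals, are chr5:149636287-149636308 on the minus strand, chr5:135887778-135887853 on the plus strand and chr7:128523614-128523632 on the plus strand. The first lies in a 5′ UTR exon, the middle one in no annotated exon, and the last mostly in a 5′ UTR exon.
Hsph1: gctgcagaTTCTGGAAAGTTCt
Hspb1: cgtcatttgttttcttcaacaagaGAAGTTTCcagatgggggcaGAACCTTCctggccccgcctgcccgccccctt
Bag3: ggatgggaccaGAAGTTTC

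**Figure D1:**
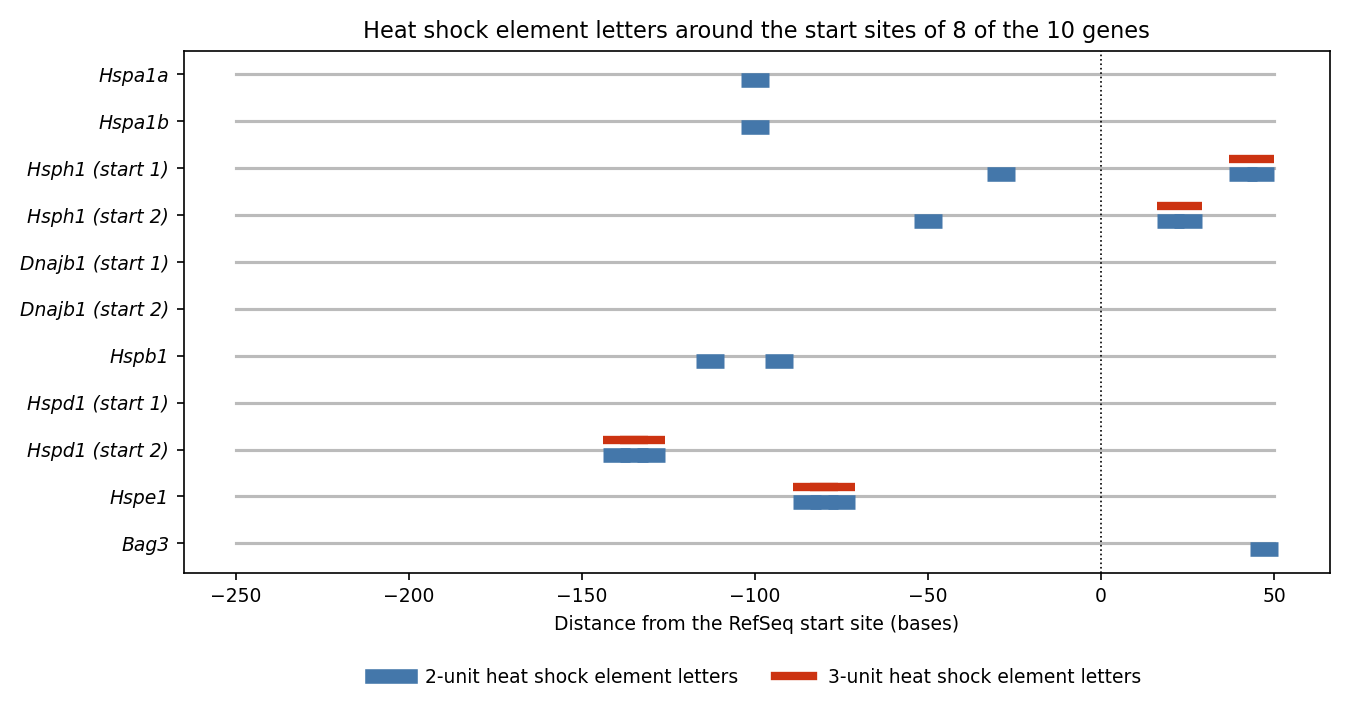
Position of 2-unit (blue) and 3-unit (red) heat shock element letters, in bases from the RefSeq start site, for 8 genes and their 11 start sites, each drawn as a grey line from 250 bases before to 50 bases after. The 3-unit letters appear in Hsph1, Hspd1 and Hspe1, and neither start site of Dnajb1 has a match.

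The question put to the heat shock genes was whether added exosomes changed their level in either differentiation medium. The values differed between the 3 exosome libraries. In replicate 1 of 0.2% FBS + exosome, all 9 tested genes had their highest level of the 6 libraries, which held for 14.9% of all genes tested. Replicate 2 showed a higher level than 0.2% FBS mainly for Hspa1b and Dnajb1, and the 2% HS + exosome library showed none of these genes past the threshold used by the study, a log2 difference above 1 or below -1. Differences below are of log2(FPKM + 1), which understates the change of low genes such as Hspa1b.

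Hspa1b stood at 2.23 FPKM in 10% FBS, 2.99 in 2% HS, 1.97 in 2% HS + exosome and 1.897 in 0.2% FBS. With exosomes in 0.2% FBS it reached 30.05 FPKM in replicate 1 and 5.39 in replicate 2. Both exosome libraries in 0.2% FBS were above the other 4, and replicate 1 was 5.58 times replicate 2. The log2 difference from 0.2% FBS was 3.42 in replicate 1, the largest of all 10726 genes, and 1.14 in replicate 2 (mean 2.28 ± 1.61, SD, n = 2). In 2% HS the exosome library was lower than its control by a log2 difference of -0.43.

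Hspa1a, the near-identical neighbour, was at 0.0293 FPKM in 10% FBS, 0.109 in 2% HS, 0.0452 in 2% HS + exosome, 0.0312 in 0.2% FBS, and 0.164 and 0.0455 in replicates 1 and 2. These levels stand for an estimated 3 to 16 reads, so Hspa1a was below the filter on low values and no ratio is given. With no filter, limma gave it a difference of 0.10 with exosomes in 0.2% FBS (unadjusted p = 0.409). Of the 75-base stretches of the Hspa1b transcript, 55.8% also occur in Hspa1a, and the way the authors' counting split such reads is not given in the sources used here. The annotated gene Gm20481 also overlaps Hspa1a on the opposite strand. The values of the pair are therefore uncertain between its members, and their sum gave the same counts of genes past the threshold as Hspa1b alone.

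Hsph1 was between 33.0 and 42.2 FPKM in 5 libraries, at 34.5 in 10% FBS, 42.2 in 2% HS, 38.2 in 2% HS + exosome, 37.7 in 0.2% FBS and 33.0 in replicate 2, but at 174 FPKM in replicate 1. The level in replicate 1 was 4.13 times the next highest, while replicate 2 was the lowest of all 6. The log2 differences from 0.2% FBS were thus 2.18 and -0.19 (mean 0.99 ± 1.67, SD, n = 2). No stretch of 75 bases of its transcript is shared with another annotated gene.

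Dnajb1, at chr8:83608193-83612653 on the plus strand, was at 18.9 FPKM in 10% FBS, 13.5 in 2% HS, 11.0 in 2% HS + exosome, 12.5 in 0.2% FBS, 55.0 in replicate 1 and 24.4 in replicate 2. Like Hspa1b, it was higher in both exosome libraries in 0.2% FBS than in any other library, with log2 differences of 2.06 and 0.92 from 0.2% FBS (mean 1.49 ± 0.81, SD, n = 2). It too shares no stretch of 75 bases with another gene.

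Bag3 was at 31.1 FPKM in 10% FBS, 31.0 in 2% HS, 28.4 in 2% HS + exosome, 36.9 in 0.2% FBS, 78.5 in replicate 1 and 35.5 in replicate 2. It overlaps another annotated gene, 2610306O10Rik. Only replicate 1 stood apart from the rest, at 2.12 times the next highest library. The log2 differences from 0.2% FBS were 1.07 and -0.06.

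Hsp90aa1, at chr12:110690605-110702728 on the minus strand, had a higher level, with 263 FPKM in 10% FBS, 281 in 2% HS, 221 in 2% HS + exosome, 238 in 0.2% FBS, 510 in replicate 1 and 245 in replicate 2. Replicate 1 was 1.82 times the next highest library, and replicate 2 lay inside the range of the other 4. The log2 differences from 0.2% FBS were 1.09 and 0.04. The constitutive cytosolic Hsp90 gene, Hsp90ab1, was at 1207 FPKM in 0.2% FBS, 1349 in replicate 1 and 1196 in replicate 2, differences of 0.16 and -0.01. Hsp90ab1 was named outside the rule by which genes of the other lists were named.

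Hspa8, at chr9:40800984-40810087 on the plus strand, had the highest level per length of the 10 genes in every library, at 1158 FPKM in 10% FBS, 1206 in 2% HS, 1020 in 2% HS + exosome, 1228 in 0.2% FBS, 1541 in replicate 1 and 1246 in replicate 2. Replicate 1 was 1.24 times the next highest library, close to the range of 1.22 times that the other 5 libraries spanned among themselves. Hspb1 was at 187 FPKM in 10% FBS, 216 in 2% HS, 238 in 2% HS + exosome, 244 in 0.2% FBS, 375 in replicate 1 and 186 in replicate 2, so that the exosome replicates were its highest and its lowest library. Its log2 differences from 0.2% FBS were 0.62 and -0.39.

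Of the mitochondrial pair, Hspd1 was at 192 FPKM in 10% FBS, 149 in 2% HS, 151 in 2% HS + exosome, 155 in 0.2% FBS, 236 in replicate 1 and 168 in replicate 2. Hspe1 was at 209, 162, 163, 186, 251 and 236 FPKM in the same order. For Hspe1 both exosome libraries in 0.2% FBS were above the other 4, and they differed from each other by a log2 difference of 0.09. Sequence shared with pseudogenes and other genes covered 53.1% of the 75-base stretches of Hsp90aa1, 68% of Hspa8, 57.7% of Hspb1, 33.7% of Hspd1 and 23.7% of Hspe1, so reads of these genes could be split between copies.

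**Figure D2:**
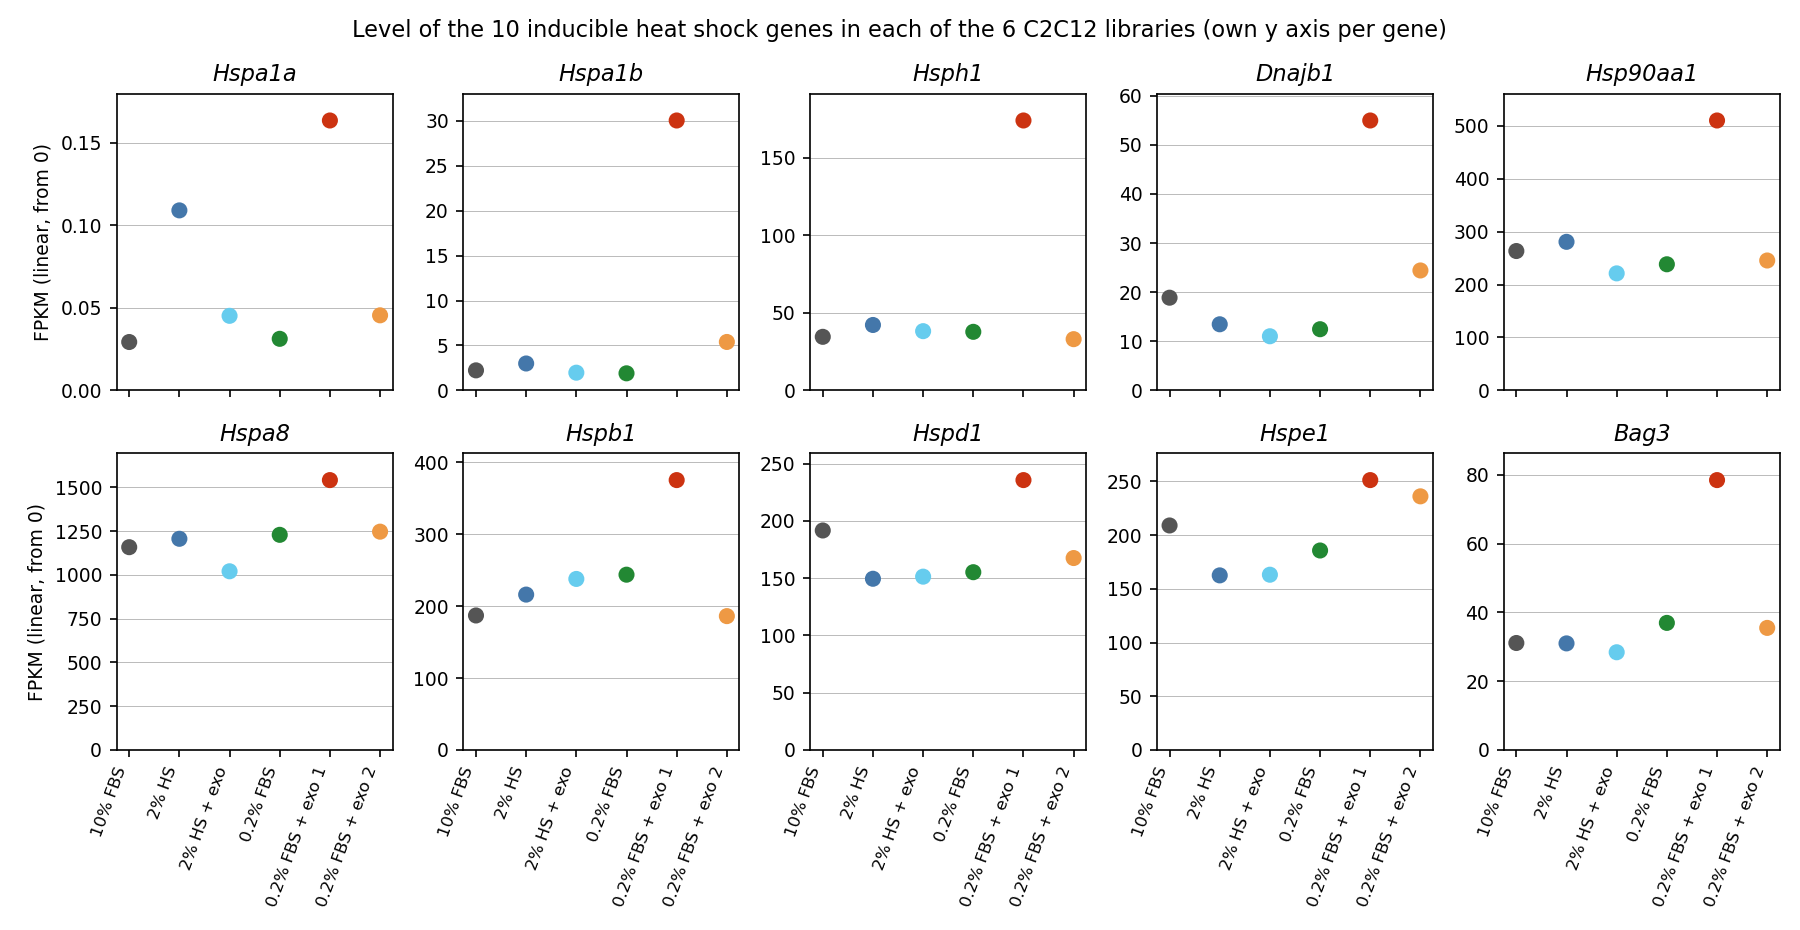
FPKM of the 10 genes in each of the 6 libraries, on a linear axis from 0 with its own range per gene; each point is 1 library, and exo 1 and exo 2 are replicates 1 and 2 of 0.2% FBS + exosome. Replicate 1 is the highest point in every panel, at 174 FPKM against at most 42.2 in the other libraries for Hsph1.

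Counted against the threshold of 1, 5 of the 9 tested genes were above 0.2% FBS in replicate 1 (Hspa1b, Hsph1, Dnajb1, Hsp90aa1 and Bag3), where 1.45% of all genes tested were. The count was 4 after scaling to the 75th percentile, where Bag3 was at 0.99, and 6 at a pseudocount of 0.1, where Hspa1a was added. In replicate 2 it was 1 of 9, Hspa1b, where 2.91% of all genes were. Only Hspa1b passed in each of the replicates, where 0.895% of all genes did. The median difference of the 9 genes was 1.07 in replicate 1 and 0.04 in replicate 2, beside medians over all genes tested of 0.09 and 0.18. Higher values than in 0.2% FBS in each replicate were found for 6 of 9 (Hspa1b, Dnajb1, Hsp90aa1, Hspa8, Hspd1 and Hspe1), close to the 55.2% of all genes, and after scaling to the 75th percentile the differences of Hsp90aa1, Hspa8 and Hspd1 in replicate 2 turned to -0.10, -0.12 and -0.03. Both replicates were compared with the same single control library, so their differences share its error.

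That scaling also moved the split of all genes past the threshold, from 45.9% higher to 33.8% in replicate 1 and from 50.6% to 34.1% in replicate 2. When the libraries were scaled to the ribosomal protein gene Rpl13a, the reference of the study's RT-qPCR, the share in replicate 2 was 9.44%, the median over all genes there was -0.26, the difference of Hspa1b was 0.75 and that of Hspe1 turned to -0.15.

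**Figure D3:**
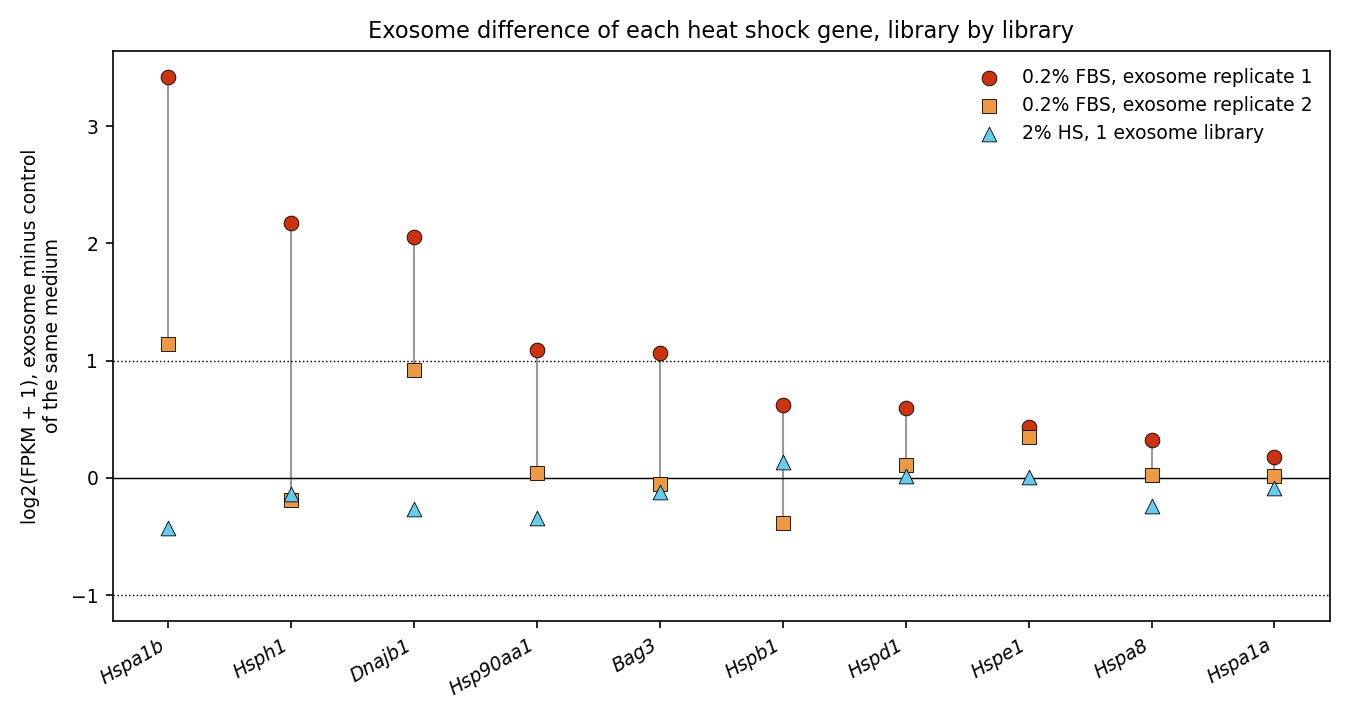
Difference in log2(FPKM + 1) between each exosome library and the control of its medium, for the 10 genes ordered by replicate 1; circles and squares are the replicates in 0.2% FBS, joined by a grey line, triangles are the single pair in 2% HS, and dotted lines mark 1 and -1. Replicate 1 reaches 3.42 for Hspa1b, replicate 2 passes 1 only for Hspa1b, and no triangle passes a dotted line.

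limma was fitted to all 6 libraries with 1 mean per condition, and its spread rests on the 2 exosome libraries in 0.2% FBS, which leave 1 residual degree of freedom. The standard errors are mostly borrowed from other genes (7.27 prior degrees of freedom), and the replicate SD of Dnajb1, 0.81, became 0.31 in the fit and that of Hspa1b, 1.61, became 0.58. With Benjamini-Hochberg adjustment over all 10726 genes, Dnajb1 rose with exosomes in 0.2% FBS (log2 difference 1.49, SE 0.38, adjusted p = 0.0387). It was the 1 called among 9 tested genes, and limma called 8.2% of all genes higher and 4.33% lower. The limma difference of Hspa1b was larger and its error larger too (2.28, SE 0.71, adjusted p = 0.0685). For Hsph1 limma gave 0.99 with a 95% interval from -0.68 to 2.67 (adjusted p = 0.395), and the other 6 genes had limma differences of 0.12 to 0.57 with adjusted p of 0.287 to 0.87. The limma call of Dnajb1 was lost without the mean-variance trend (adjusted p = 0.0651), with no filter on low values (0.389), with values below 1 FPKM raised to 1 (0.195), under Rpl13a scaling (0.909) and in a common exosome effect over 5 libraries (0.708). Hspa1b passed limma's threshold at a pseudocount of 0.1 (adjusted p = 0.0484) and under Rpl13a scaling (0.00138). The Rpl13a fit gave Hspa1b an SE of 0.46, although its replicates there were further apart, at 3.45 and 0.75. Its error in that fit was in effect borrowed wholly from other genes, so the smaller adjusted p is not stronger evidence. Over all genes limma made no call in 3 of these alternatives, so each limma call below rests on the settings used.

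The 2 exosome libraries in 0.2% FBS lay further apart for most of these genes than for nearly all other genes. Replicate 1 was above replicate 2 in 9 of 9 tested genes, against 36.4% of all genes. The log2 difference between the replicates was above 1 for 6 of 9 (Hsph1 2.36, Hspa1b 2.28, Dnajb1 1.14, Bag3 1.12, Hsp90aa1 1.05 and Hspb1 1.01), against 0.298% of all genes, and Hsph1 and Hspa1b had the 2 highest values of all 10726. Under Rpl13a scaling the same 6 genes were above 1, against 1.63% of all genes. Only Hspe1, with 0.09, had a replicate SD below the median of all genes, 0.06 against 0.10. Its replicate difference was 0.15 after scaling to the 75th percentile and 0.58 under Rpl13a scaling. Compared with growing cells in 10% FBS, 5 of 9 genes were above 1 in replicate 1 (0.615% of all genes) and 0 of 9 in replicate 2 (0.932% of all genes), where Hspa1b reached 0.99. The count in replicate 1 was 4 after scaling to the 75th percentile, where Hspb1 was at 0.96, and 6 under Rpl13a scaling, where Hsp90aa1 was at 1.29. With a pseudocount of 0.1 the difference of Hspa1b in replicate 2 was 1.24.

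The exosome library in 2% HS was above its control in 3 of the 9 tested genes, where 41.3% of all genes were, with log2 differences from -0.43 for Hspa1b and -0.34 for Hsp90aa1 to 0.14 for Hspb1. None was above 1 (0.354% of all genes) or below -1 (0.298% of all genes), and the median of -0.14 lay beside -0.04 over all genes. Under Rpl13a scaling Hspb1, Hspd1 and Hspe1 were below their control too, at -0.02, -0.14 and -0.15. With 1 library on each side these differences have no replicate check. A limma contrast of the exosome difference in 0.2% FBS with that in 2% HS was passed by 0 of 9 genes (0.298% of all genes were called higher in 0.2% FBS and 0.867% lower). Without adjustment 2 of the 9 had p below 0.05, near the share of all genes, 19.5%, and these were Dnajb1 (difference 1.75, limma adjusted p = 0.158) and Hspa1b (2.71, limma adjusted p = 0.227). Under Rpl13a scaling Hspa1b passed this limma contrast (2.66, adjusted p = 0.0489), with an error again borrowed from other genes.

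Differentiation alone left the 9 genes within the threshold. From 10% FBS to 0.2% FBS, 0 of 9 were above 1 (1.79% of all genes) and 0 below -1 (0.69%), with Dnajb1 lowest at -0.56 and Hspb1 highest at 0.38. From 10% FBS to 2% HS, again 0 of 9 were above 1 (1.79%) and 0 below -1 (0.522%), from -0.46 for Dnajb1 to 0.31 for Hspa1b. These comparisons share the 10% FBS library. Between 0.2% FBS and 2% HS, 0 of 9 were above 1 (0.233%) and 0 below -1 (0.298%), and the widest gap was -0.46 for Hspa1b. Each of these is a pair of single libraries with no replicate check, and under Rpl13a scaling Hspd1, Hspe1, Hsp90aa1 and Hspa1b turned from lower to higher between 10% FBS and 0.2% FBS, as did Dnajb1, Hspd1, Hspe1 and Bag3 between 10% FBS and 2% HS.

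Hsf1, the main activator of these genes, was at 34.8 FPKM in 10% FBS, 28.0 in 2% HS, 29.7 in 2% HS + exosome, 28.7 in 0.2% FBS, 43.1 in replicate 1 and 40.9 in replicate 2. Hsf1 was thus higher in both exosome libraries in 0.2% FBS, by 0.57 and 0.50, with nearly the same value in each. Rpl13a scaling moved the median over all genes from 0.18 to -0.26 in replicate 2 and from 0.095 to 0.087 in replicate 1. The closeness of the 2 Hsf1 values therefore depends on the scaling, and scaled values of Hsf1 were not examined. Hsf2 (0.01 and -0.07), Hsf4 (-0.01 and 0.27) and the factor-binding protein Hsbp1 (0.08 and 0.25) differed less, Hsf3 was listed at 0 in every library and Hsf5 stayed below 0.04 FPKM. limma called 0 of the 4 tested genes of this list, where it called 8.2% of all genes higher and 4.33% lower. Of the 4, 1 had an unadjusted limma p below 0.05, where 31.5% of all genes did.

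Among 33 other cytosolic chaperones and co-chaperones, 19 were higher in replicate 1 than in replicate 2 (36.4% of all genes) and 15 had their highest level in replicate 1 (14.9% of all genes). Dnaja1, an Hsp40 like Dnajb1, was at 32.5 FPKM in 0.2% FBS, 78.0 in replicate 1 and 40.3 in replicate 2. It was the 1 gene of the 33 with a difference above 1 in replicate 1, where 1.45% of all genes were. Fkbp4 (0.73 and 0.39), Ahsa2 (0.82 and 0.30) and Dnajb6 (0.49 and 0.67) came next by their mean. At the other end were Dnajb5 (-0.83 and -1.002), Bag1 (-0.72 and -0.71), Bag2 (-0.41 and -0.39) and Dnajc7 (-0.46 and -0.37). Dnajb5 was the 1 gene of the 33 that limma called, as lower (adjusted p = 0.0163). Over all genes, limma called 4.33% lower and 8.2% higher.

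Chaperones of other compartments did not share one pattern. Of 17 chaperones of the endoplasmic reticulum, all 17 were higher in replicate 1 than in replicate 2 (36.4% of all genes). Of the 17, 15 had their highest level in replicate 1 (14.9% of all genes). Their median replicate difference was 0.64, beside 1.05 for the 9 inducible genes. Pdia4 (0.97 and 0.28), a disulfide isomerase, and Serpinh1 (0.86 and 0.37), the collagen chaperone, had the largest means and Dnajb11 (-0.10 and -0.47) and Dnajb9 (0.21 and -0.54) the smallest. Here limma called 0 of the 17 (8.2% of all genes higher and 4.33% lower), with 1 at an unadjusted p below 0.05 (31.5% of all genes). Of 12 mitochondrial chaperones and proteases 2 were higher in replicate 1 than in replicate 2 (36.4% of all genes), and limma called 1 of them (8.2% of all genes), Hscb, an iron-sulfur cluster co-chaperone, as higher (0.56 and 0.78, adjusted p = 0.0425), while Hspa9, the mitochondrial Hsp70, was at -0.33 and -0.32, Grpel1 at -0.44 and -0.32 and Grpel2 at 0.47 and 0.32. Of 14 genes of the TRiC chaperonin and prefoldin, which fold actin and tubulin, 3 were higher in replicate 1 than in replicate 2 (36.4% of all genes). Among these 14, limma called 0 (8.2% of all genes higher and 4.33% lower), with 1 at an unadjusted p below 0.05 (31.5% of all genes). Their ends were Pfdn5 (0.15 and 0.53) and Pfdn2 (0.05 and 0.25) against Vbp1 (-0.47 and -0.35) and Cct3 (-0.26 and -0.30).

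**Figure D4:**
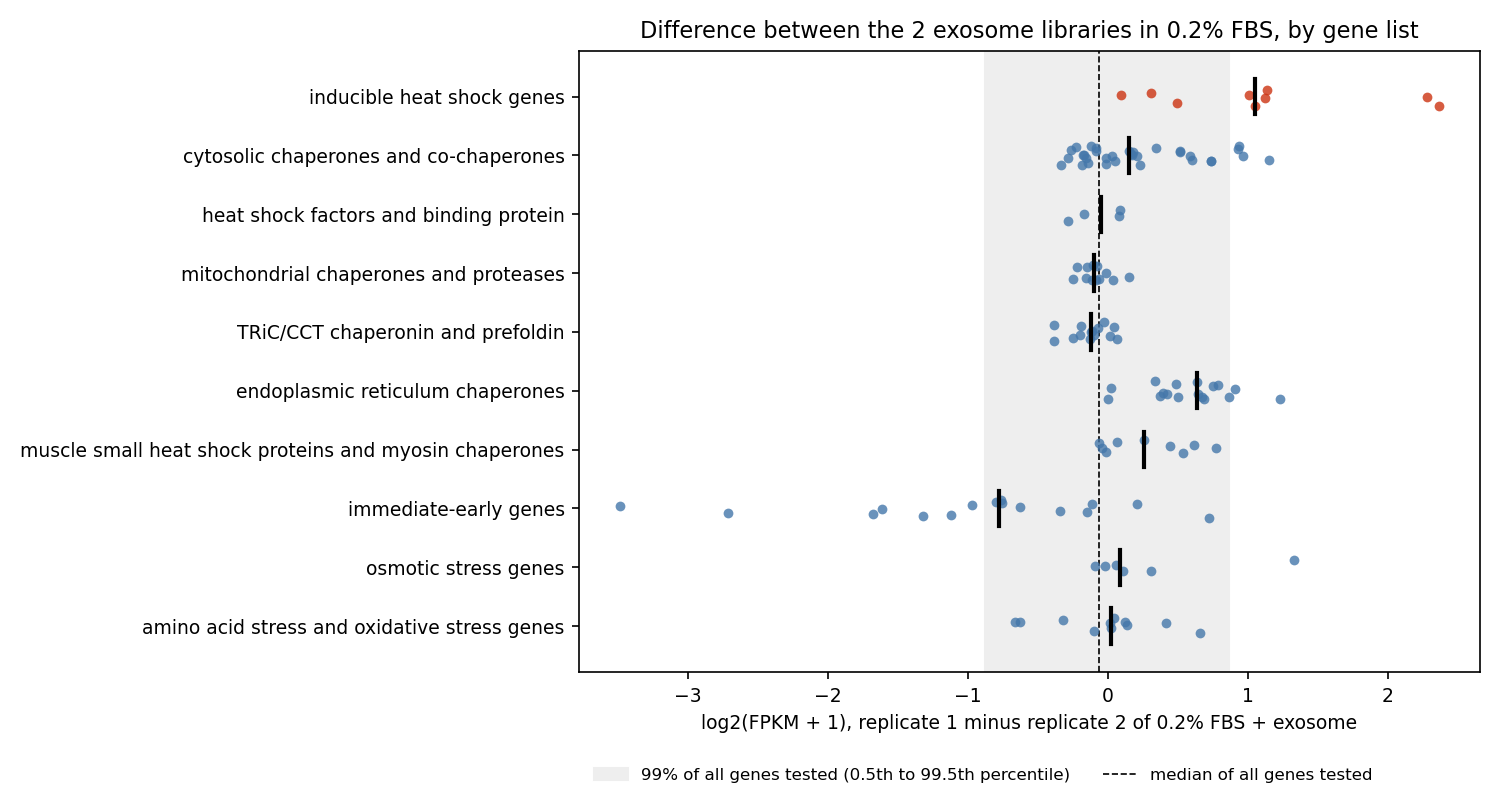
Difference in log2(FPKM + 1) between replicates 1 and 2 of 0.2% FBS + exosome; each point is a gene of the named list with a mean of at least 1 FPKM, black bars are list medians, the grey band holds 99% of the 10726 genes (from -0.88 to 0.86) and the dashed line is their median. The inducible heat shock genes centre at 1.05, the chaperones of the endoplasmic reticulum at 0.64 and the immediate-early genes at -0.78.

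Most small heat shock proteins of muscle, relatives of Hspb1, fell with exosomes in 0.2% FBS. Of 9 muscle small heat shock proteins and myosin chaperones, limma called 6 lower with exosomes in 0.2% FBS (4.33% of all genes) and 0 higher (8.2%). In the single pair in 2% HS their median exosome difference was -0.04, and 0 were below -1 (0.298% of all genes). From 10% FBS to 0.2% FBS without exosomes their median rose by 0.89. Hspb2 went from 99.9 FPKM in 0.2% FBS to 36.9 and 26.9 in replicates 1 and 2 (limma difference -1.64, adjusted p = 0.00766), and Hspb3 from 4.99 to 1.71 and 0.87 (-1.41, adjusted p = 0.014). Hspb6 (-0.13 and -0.06) and Unc45a (0.38 and 0.39), the general form of a myosin chaperone, were the genes at the other end. The summed myogenic markers were also lower with exosomes in 0.2% FBS, at 4204 and 3225 FPKM against 8871, and their part in these values was not tested.

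The immediate-early genes, which serum and stress switch on within minutes, were lower in replicate 1 than in replicate 2 in 14 of 16. Over all genes, 36.4% were higher in replicate 1. Fos was at 3.04 FPKM in 0.2% FBS, 8.03 in replicate 1 and 100 in replicate 2, and Fosb at 0.64, 1.47 and 15.2. At the low end were Atf3 (-0.57 and -1.29) and Klf6 (0.27 and 0.07), and limma called 1 of the 16 higher (8.2% of all genes), Ier3, named after its value was seen (1.08, adjusted p = 0.0454). Fos was at 113 FPKM in growing cells, so replicate 2 was near the 10% FBS level for this gene. Whether the lower heat shock genes and the higher immediate-early genes of replicate 2 have a common source was not tested.

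Of 6 tested osmotic stress genes, Slc5a3, the inositol transporter, was at 1.80 FPKM in 0.2% FBS, 17.7 in replicate 1 and 6.44 in replicate 2, and it was the 1 that limma called higher, where 8.2% of all genes were (2.08, adjusted p = 0.0233). Slc38a2 (0.57 and 0.46), Akr1b3 (-0.34 and -0.25) and Slc6a6 (-0.45 and -0.50) differed less. Of 11 genes of amino acid and oxidative stress, limma called 3 lower in 0.2% FBS (4.33% of all genes), among them Asns (-1.38 and -1.51, adjusted p = 0.00766) and Chac1 (-0.99 and -1.40, adjusted p = 0.0133), and the third, Trib3, was named after its value was seen. Ddit3 (1.03 and 0.38) and Srxn1 (0.09 and 0.72) were at the high end, and 8 of the 11 were higher with exosomes in 2% HS, where 41.3% of all genes were.

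The genes whose levels followed the mean profile of the 9 heat shock genes most closely over the 6 libraries were sought among 647 genes with an SD of at least 0.5. Banp (Pearson r = 0.995) came first, with 2.71 FPKM in 0.2% FBS, 12.3 in replicate 1 and 4.02 in replicate 2. Slc5a3 (0.935), Prl2c2 (0.915), Htr1b (0.878), Osr2 (0.869), Sprr1a (0.842), Itga10 (0.838), Angptl4 (0.832), Efnb2 (0.822) and Fam131b (0.816) followed. These correlations describe 6 points that share 1 far point, replicate 1, and 5 of the libraries lie close together.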

How the data were processed

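The 6 TruSeq Stranded mRNA libraries of C2C12 cells, 2 of them of 0.2% FBS + exosome and 1 of each of 4 other conditions, were sequenced from a single end with 75 bp reads. The authors trimmed adaptors with cutadapt 1.9.1, mapped them to mm10 with TopHat2 2.1.0, computed FPKM with Cufflinks and deposited the FPKM values as 1 table. The strand setting is not given in the sources used here. FPKM divides by transcript length and depth, so counting error per gene is not given. Depth was estimated from 2442 genes with a single transcript (fragments of 200 bases assumed), and 70.2% to 72.9% of low values came within 0.1 of whole reads at the chosen depth, too few to recover counts. Of the 20950 rows, 10 with repeated names were left out.

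Values were compared as log2(FPKM + 1), with a mean of at least 1 FPKM for genes tested and the study's threshold of 1 or -1. limma 3.58.1 in R 4.3.3 was fitted with a mean-variance trend and Benjamini-Hochberg adjustment, and was tested on simulated data. The 10 genes, the other 9 lists and the tests were chosen with earlier results of these data known, so no list is independent evidence of a direction. In each other list the 2 genes at each end of the mean exosome difference in 0.2% FBS were named (4 for cytosolic chaperones), all heat shock factors, and the 10 genes most like the mean profile. Alternatives were the pseudocount, the filter, the scaling, the trend, the sum of Hspa1a and Hspa1b, a common exosome effect and leaving out each exosome replicate. Positions come from GENCODE vM21 (GRCm38, the mm10 assembly) and promoters from RefSeq (GRCm38.p6).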

Additional observations from a re-analysis of the deposited data

Results flagged for a closer look

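Hspa1a was higher than its control in both exosome libraries in 0.2% FBS, by log2 differences of 0.17 and 0.02, and lower in the exosome library in 2% HS, by -0.09, which makes a difference of 0.18 between the media. It drew attention only because all its exosome libraries in one medium moved one way and that of the other medium the opposite way. Hspa1b, Dnajb1, Hsp90aa1 and Hspa8 had the same order of signs, and their difference between media did not pass the limma test given above. The gene was below the filter on low values, so this difference was not tested in the fit reported. limma with no filter gave it an unadjusted p of 0.33 (adjusted p = 0.605), and the levels stand for an estimated 3 to 16 reads per library.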

How the results depend on the processing

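The median exosome difference over the 10 genes was 0.45 in 0.2% FBS and -0.13 in 2% HS. Taken gene by gene, the difference between the media had a median of 0.52. Under Rpl13a scaling the exosome median in 0.2% FBS went to 0.20 and that in 2% HS to -0.28. The exosome median in 0.2% FBS was 0.03 without replicate 1 and 0.84 without replicate 2. The median of the difference between the media was 0.18 without replicate 1 and 0.88 without replicate 2. Without replicate 1 the difference between media for Hsph1 turned from 1.13 to -0.048, and without replicate 2 it was 2.32. Under Rpl13a scaling 0 genes instead of 1 passed the threshold in replicate 2 and in each replicate, and limma called 1 (Hspa1b) instead of 0 for the difference between media. That limma call used an error borrowed from other genes. The count of genes higher in replicate 2 than in 0.2% FBS went from 7 of 10 to 4 under 75th percentile scaling and 3 under Rpl13a scaling. Against 10% FBS, replicate 2 had 1 gene above 1, Hspa1b, instead of 0 at a pseudocount of 0.1 and with values below 1 raised to 1. For the exosome effect in 0.2% FBS, limma called 2 of the genes at a pseudocount of 0.1 and 0 with values below 1 raised to 1, with no filter, with no trend and in the common effect, against 1. The difference of Dnajb1 was 1.49 in the main fit (SE 0.38), with no filter (SE 0.69) and with no trend (SE 0.41). With values raised to 1 it was 1.56 (SE 0.56), and in the common effect 0.74 (SE 0.46). What changed the errors was not tested. Over all genes limma called 1343, but 0 with values raised to 1 (2928 at an unadjusted p below 0.05), 0 with no filter (3120), 0 in the common effect (708) and 102 under Rpl13a scaling. For the difference between media it called 125, but 350 under 75th percentile scaling, 45 with no trend, 29 under Rpl13a scaling, and 0 with no filter (2275 unadjusted) or with values raised to 1 (1694). No paired analysis was possible because only 1 condition has 2 libraries, so replicate numbers pair no samples; the common effect compares libraries within each medium. Single libraries are assumed to vary like the replicated condition.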
